A study of Mus musculus with 6 samples.

Results

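A group of 5 genes of platelet-derived growth factor (PDGF) signalling were followed in mouse hepatic stellate cells in culture, the pericytes of the liver sinusoid that store vitamin A. They are the 2 receptor genes Pdgfra and Pdgfrb and the 3 ligand genes Pdgfa, Pdgfb and Pdgfc, taken by symbol from the 13341 genes of the table. Messenger RNA was measured in 6 libraries, 3 from cells labelled wild type and 3 from cells labelled Nbr1 knock-out. NBR1 is a receptor that carries cargo into autophagosomes, as does its relative p62. Every group grew for 4 days in DMEM with 10% fetal bovine serum, glutamine and antibiotics under basal conditions, with no PDGF or other agent named as added, and the labels give no strain, age or sex. The labels call the 3 of a group biological replicates and do not say whether they came from separate animals, so the p-values measure the spread between these libraries. The series as a whole concerns how NBR1 and p62 act on STING signalling in stellate cells.

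PDGFs are secreted dimers that bind and pair 2 receptor tyrosine kinases, PDGFR-alpha and PDGFR-beta, whose phosphorylated tails recruit adaptors of the Ras, phosphoinositide 3-kinase and Src pathways. Dimers of the A and C chains act through PDGFR-alpha, while the B chain binds both receptors. PDGF-C is secreted in a latent form that proteases must cut. In injured liver, PDGF is a mitogen and chemoattractant of stellate cells, and PDGFR-beta is widely used as a marker of their activation to myofibroblasts.

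Values are normalized read counts from a kit that reads transcript ends, so they are not expected to grow with transcript length. How fully the end of each gene was captured was not tested. Levels of different genes set side by side below are therefore orders of counts. Triplets of values are in the order of libraries 1 to 3. The libraries held 1508518 to 2383879 recovered reads, and the median gene stood at 45.4 to 53.3 normalized counts. Library 1 of the wild-type label stood apart, with a correlation of 0.857 and 0.856 with the other libraries of its label across genes, which are not independent replicates. The corresponding value of those 2 libraries with each other was 0.984. With knock-out libraries 1, 2 and 3, wild-type library 1 correlated at 0.875, 0.800 and 0.888. It was thus nearer to knock-out libraries 1 and 3 than to the other libraries of its own label. Clustering of the deviations from the group means gave a set A, of library 1 from wild type with libraries 1 and 3 from the knock-out, and a set B of the remaining libraries. Nbr1 itself had 204.1, 278 and 288.7 normalized counts under the wild-type label and 203.7, 188.2 and 175.6 under the knock-out label (limma adjusted p = 0.22). Reads from the transcript end do not test a deletion placed elsewhere in the gene. Sqstm1, which encodes p62, had 24, 10.9 and 12.7 under the wild-type label. It had 817.4, 644.6 and 859.1 under the knock-out label, a mean 48.7-fold higher (limma adjusted p = 0.000337). The gene named in the label thus differed far less than Sqstm1, and the match of labels to cells was not tested. Each difference below, its direction and the gene it is credited to rest on the labels as given.

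The upstream promoter windows of 2 members are shown because they belong to the receptor with the largest difference and to a ligand whose difference pointed the other way. No window of Pdgfrb, the other receptor, was searched or shown. Each runs 5′ to 3′ over the 250 bases before a RefSeq start on the plus strand of build GRCm38.p6. Bases just after the start were found in 1 GENCODE M21 transcript of Pdgfc but in 0 of Pdgfra, so the Pdgfra start lacks this check. The window of Pdgfra lies at chr5:75152001-75152250 and that of Pdgfc at chr3:81036166-81036415. Capitals mark a match to 1 of 4 motifs searched on both strands, namely the GC box GGGCGG, the TATA box TATAAA, the AP-1 site TGANTCA and the CArG box bound by serum response factor. The CArG box was added to the search after the Pdgfc window had been seen.
Pdgfra: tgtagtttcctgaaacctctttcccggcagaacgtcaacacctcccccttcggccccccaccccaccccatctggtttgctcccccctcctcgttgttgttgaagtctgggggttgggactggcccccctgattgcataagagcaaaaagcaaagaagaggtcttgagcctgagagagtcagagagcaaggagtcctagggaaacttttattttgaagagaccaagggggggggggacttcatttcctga
Pdgfc: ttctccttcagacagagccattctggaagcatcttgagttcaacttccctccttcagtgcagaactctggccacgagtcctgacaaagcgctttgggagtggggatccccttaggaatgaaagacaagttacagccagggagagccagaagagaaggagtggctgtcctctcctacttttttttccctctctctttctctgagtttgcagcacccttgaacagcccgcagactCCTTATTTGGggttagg
The Pdgfra window held no match to these motifs. The only match in the Pdgfc window was a CArG box whose first base lies 17 bases before the start. Across all 32851 windows of this length in the RefSeq table, 1.5% held a CArG box, 32.7% a GC box, 12.4% a TATA box and 6.7% an AP-1 site. A match is a description of letters only.

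Both receptor genes had more transcripts in every knock-out library than in any wild-type library. Pdgfrb rose 3.75-fold and passed the test. Pdgfra had a mean 5.02-fold higher, with more spread between libraries, and narrowly did not pass. Among the ligands, Pdgfa overlapped between the labels, Pdgfc was 1.79-fold lower under the knock-out label without passing, and Pdgfb was barely detected in either.

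Pdgfrb encodes PDGFR-beta, the main receptor for PDGF-BB on mesenchymal cells. It had 21.3, 42 and 47.2 normalized counts under the wild-type label and 150.3, 140.1 and 124.6 under the knock-out label. The lowest knock-out library was above the highest wild-type library, and the knock-out libraries lay close together. The means were 36.8 ± 13.7 and 138.3 ± 12.9 (SD, n = 3 each), a log2 difference of 1.95 (SE 0.31, 95% interval 1.21 to 2.69, limma adjusted p = 0.0143). On this scale, log2(normalized count + 1), 97.9% of the 10540 tested genes had a lower value. Of the 4 members tested, Pdgfrb was the only 1 to pass upward and 0 passed downward, where 4.67% of all tested genes passed upward and 2.25% downward. Of the 4, Pdgfc was the only 1 with a lower value at an unadjusted p under 0.05, as had 9.84% of all tested genes. In edgeR and DESeq2, 0 of the 4 were called lower, beside 239 and 346 of all 10540 tested genes.

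The call of Pdgfrb needed every knock-out library. Without knock-out library 1, 2 or 3 the adjusted p was 0.0923, 0.0616 or 0.0688, with log2 differences of 1.89, 1.94 and 2.02. Without wild-type library 1, 2 or 3 the call held, at 0.00133, 0.0437 and 0.0295. The difference was 2.62 within set A and 1.63 within set B, values with no test because 1 label has a single library in each.

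Pdgfra encodes PDGFR-alpha, the receptor for PDGF-AA and PDGF-CC, which also binds the B chain. It had 8, 31.9 and 34.5 normalized counts under the wild-type label and 105.9, 185.6 and 81.9 under the knock-out label. The groups did not overlap, wild-type library 1 was lowest of all, and knock-out library 2 was highest. The value in wild-type library 1 rests on 6 reads, with an exact 95% Poisson interval of 2.9 to 17.4 that lies below those of wild-type libraries 2 (22.6 to 43.8) and 3 (24.4 to 47.4). The interval of knock-out library 2, 161.7 to 212.1, lies above those of knock-out libraries 1 (87.6 to 126.9) and 3 (63.7 to 103.7).

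The group means of Pdgfra were 24.8 ± 14.6 and 124.5 ± 54.3 (SD, n = 3 each), a log2 difference of 2.43 (SE 0.58, 95% interval 1.05 to 3.82). Its limma adjusted p was 0.0573. Without wild-type library 1 the difference was smaller, 1.79, with less spread, and it passed (adjusted p = 0.0121). In that fit 12.1% of all tested genes passed upward and 9.02% downward, against 4.67% and 2.25% in the main fit. Leaving out any 1 of the other 5 libraries gave 0.0866 to 0.196. The difference was 3.39 within set A and 2.45 within set B. On the recovered reads it also passed in edgeR (log2 difference 2.30, adjusted p = 0.0456), where 7.27% of tested genes passed in either direction, and in DESeq2 (adjusted p = 0.000528), where 9.02% did. Over all 16 alternatives the adjusted p of Pdgfra ran from 5.59e-05 to 0.196. The lowest came with a term for the library sets, which were found from the same values.

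**Figure D1:**
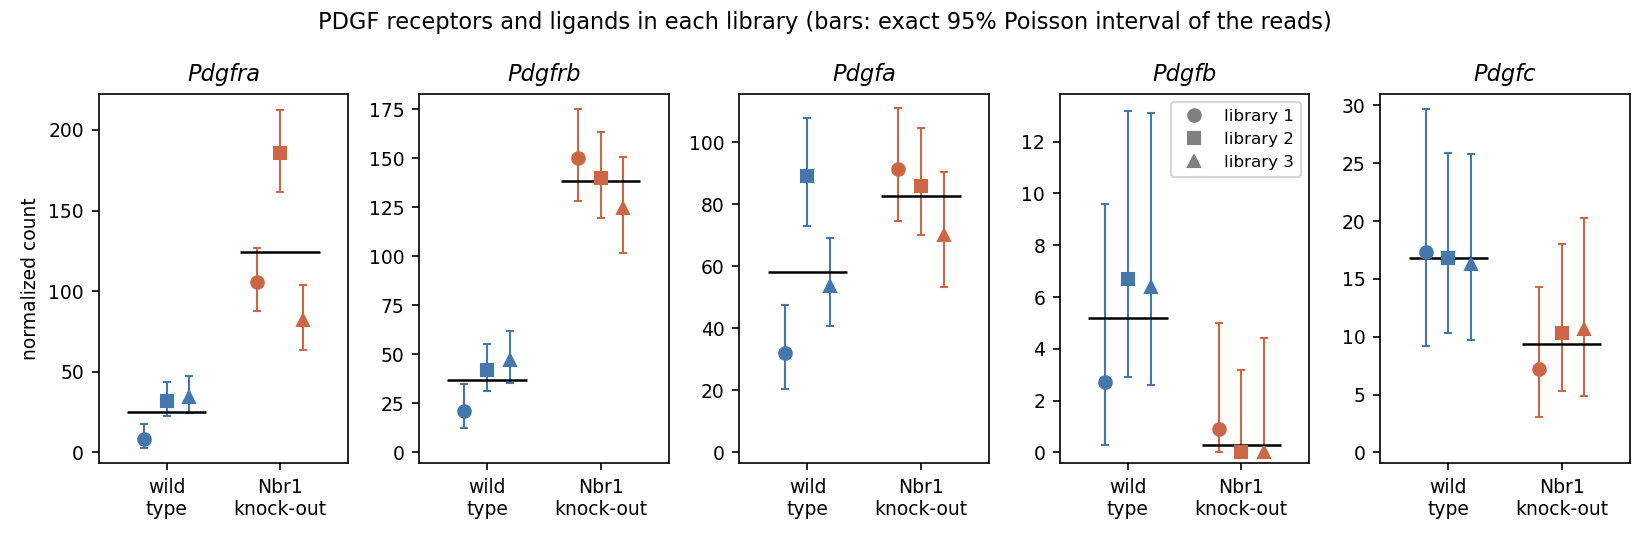
Normalized counts (vertical axis, a separate scale for each gene) of the 5 genes in the 3 wild-type (blue) and 3 Nbr1 knock-out (orange) libraries; symbols mark library number, bars the exact 95% Poisson interval of the reads and black lines group means. Pdgfrb separates the labels, with 21.3 to 47.2 against 124.6 to 150.3, while Pdgfa overlaps and Pdgfb reaches at most 6.7.

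Summed over the 2 receptor genes, the levels were 29.4, 73.9 and 81.7 normalized counts under the wild-type label and 256.2, 325.7 and 206.5 under the knock-out label. The 2 genes were also set against each other within each library as log2 ratios of (normalized count + 1), in which the library scaling cancels but for the added 1. The log2 ratio of Pdgfra to Pdgfrb was -1.31, -0.39 and -0.44 under the wild-type label and -0.50, 0.40 and -0.60 under the knock-out label. Pdgfra exceeded Pdgfrb in knock-out library 2 only, and the labels overlapped. The mean ratios were -0.71 ± 0.52 and -0.23 ± 0.55 (SD, n = 3 each), a difference of 0.48 (exact permutation test, two-sided, p = 0.60, where 3 against 3 cannot go below 0.10). This does not show that the receptors changed to the same degree.

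Pdgfa encodes the A chain, which signals through PDGFR-alpha. It had 32, 89 and 53.6 normalized counts under the wild-type label and 91.4, 85.9 and 70 under the knock-out label. Wild-type library 2 lay within the knock-out range, so the groups overlapped, and wild-type library 1 was again lowest. The means were 58.2 ± 28.8 and 82.5 ± 11.1 (SD, n = 3 each), a log2 difference of 0.60 (SE 0.37, 95% interval -0.27 to 1.48, limma adjusted p = 0.4). The interval includes both no difference and a difference above 2-fold. Without wild-type library 1 the difference was 0.24, and without wild-type library 2 it was 0.97, neither of which passed (adjusted p = 0.498 and 0.183). It was 1.29 within set A and 0.31 within set B.

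Pdgfc encodes the C chain, which carries a CUB domain that is cut off to release the active factor. It had 17.3, 16.8 and 16.3 normalized counts under the wild-type label and 7.2, 10.3 and 10.7 under the knock-out label. The labels did not overlap, and the 3 wild-type values were nearly equal. They rest on 13, 20 and 18 reads against 8, 12 and 9, so that each library's Poisson interval spans several counts (9.2 to 29.7 in wild-type library 1, 5.3 to 18 in knock-out library 2). The means were 16.8 ± 0.5 and 9.4 ± 1.9 (SD, n = 3 each), a log2 difference of -0.79 (SE 0.28, 95% interval -1.45 to -0.13), which did not pass (limma adjusted p = 0.151). It was -0.90 within set A and -0.63 within set B. It passed in no alternative in which it was tested, with adjusted p from 0.0653 to 0.445. Among the 4 tested members, Pdgfra and Pdgfrb had groups that did not overlap with the knock-out label higher, as did 16.5% of all tested genes, and Pdgfc with it lower, as did 13.6% (30.1% in all).

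Pdgfb encodes the B chain, the ligand of PDGFR-beta that platelets, macrophages and endothelium are known to supply. Its values were 2.7, 6.7 and 6.4 normalized counts under the wild-type label, and 0.9, 0 and 0 under the knock-out label. It stayed under the minimum of 10 normalized counts in 3 libraries and was not tested. In reads this was 2, 8 and 7 against 1, 0 and 0, a ratio of wild type to knock-out of 17.4 with an exact 95% binomial interval of 2.72 to 727, which covers counting error only. The upper ends of the intervals of the 2 empty libraries were 3.2 and 4.4 normalized counts, which reach the value of wild-type library 1. With no filter on low values, the limma adjusted p of Pdgfb was 0.0489, for a log2 difference of -2.26 that depends on the pseudocount. It was -2.93 with 0.5 added and -0.93 with 5 added.

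The balance of the 2 PDGFR-alpha ligands was also compared within libraries. The log2 ratio of Pdgfa to Pdgfc was 0.85, 2.34 and 1.65 under the wild-type label and 3.49, 2.94 and 2.60 under the knock-out label. All 3 knock-out values were above the wild-type values. The means were 1.61 ± 0.75 and 3.01 ± 0.45 (SD, n = 3 each), a difference of 1.40, for which the exact two-sided permutation test gave p = 0.10, the smallest it can give. Adjusted over the 2 ratios tested, p was 0.20 for this ratio and 0.60 for that of the receptors.

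**Figure D2:**
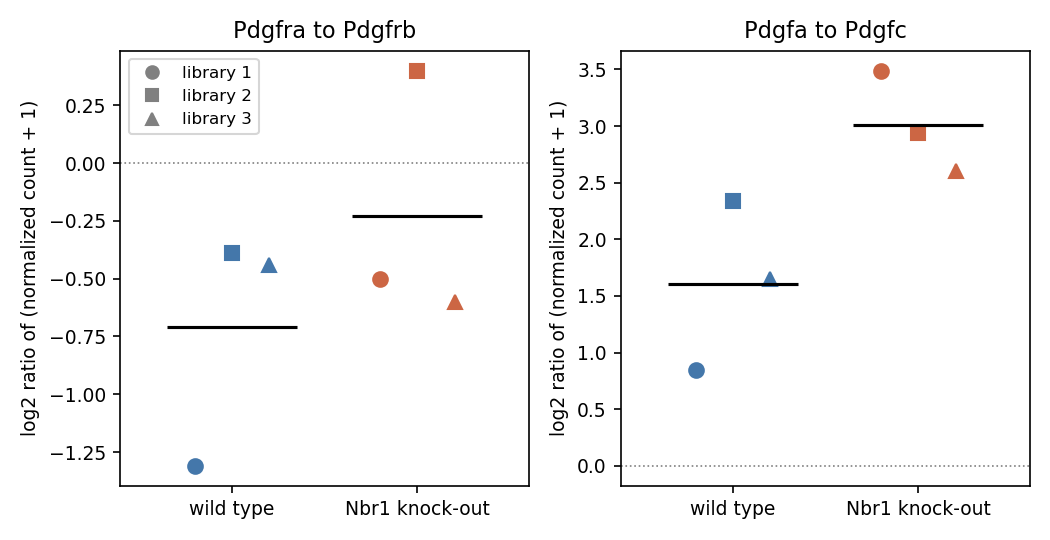
Log2 ratios of (normalized count + 1) of Pdgfra to Pdgfrb (left) and of Pdgfa to Pdgfc (right) in each library, by label, with black lines at group means and a dotted line at equal levels. The receptor ratios overlap between labels, while the ligand ratios lie at 0.85 to 2.34 in wild type and 2.60 to 3.49 under the knock-out label.

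The order of the 5 transcripts within a library differed between the labels. In each wild-type library Pdgfa was highest, followed by Pdgfrb, and Pdgfb was lowest. Pdgfa and Pdgfrb had overlapping Poisson intervals in wild-type libraries 1 and 3. In wild-type library 1 the interval of Pdgfc overlapped that of each other member, and that of Pdgfb also overlapped that of Pdgfra. The intervals of Pdgfb and Pdgfc overlapped in wild-type libraries 2 and 3 as well. Pdgfra came next in wild-type libraries 2 and 3, with intervals that overlapped those of both Pdgfrb and Pdgfc, but in wild-type library 1 it stood below Pdgfc, at 8 against 17.3, with overlapping Poisson intervals. In each knock-out library the receptors came first, except that Pdgfa and Pdgfra had overlapping intervals in knock-out libraries 1 and 3. The 3 ligand genes together gave 52, 112.5 and 76.3 normalized counts under the wild-type label and 99.6, 96.3 and 80.7 under the knock-out label, which overlapped. Among all genes of the table, 42.1% had a lower wild-type mean than Pdgfrb and 74.2% a lower knock-out mean. For Pdgfra these shares were 34.7% and 71.9%, for Pdgfa 52.5% and 61.4%, and for Pdgfc 29.1% and 21.5%.

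**Figure D3:**
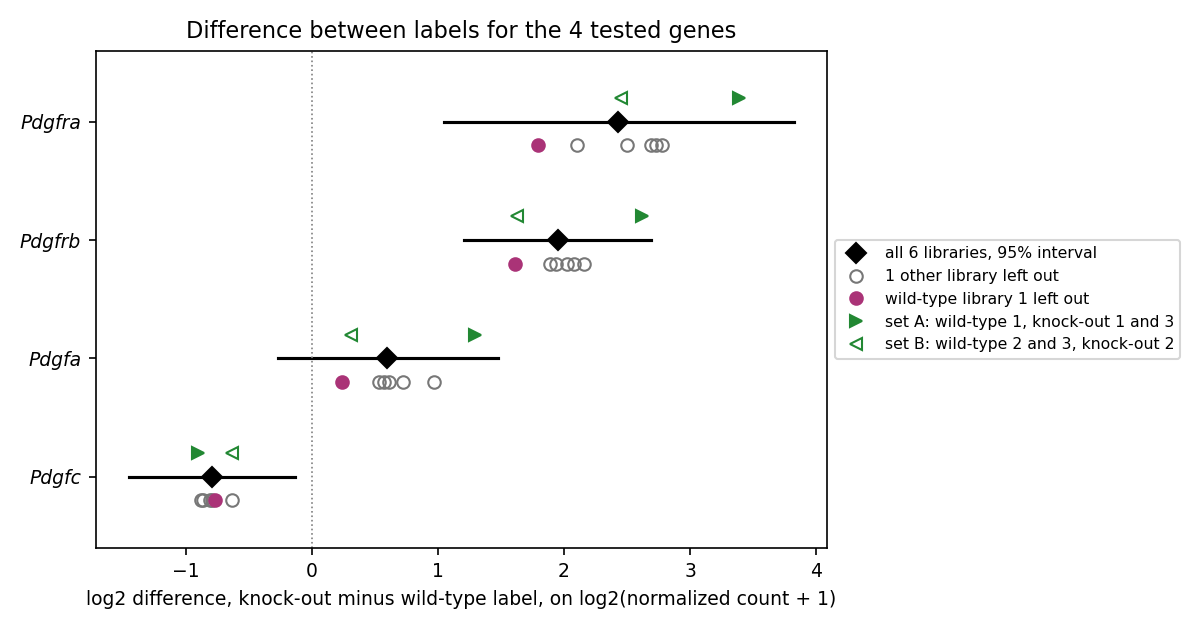
Log2 differences, knock-out minus wild-type label, on log2(normalized count + 1), for the 4 tested genes: diamonds and lines give the fit to 6 libraries with its 95% interval, circles the fits with 1 library left out and triangles the differences within set A (filled) and set B (open). Every estimate for Pdgfra and Pdgfrb lies above 0, from 1.61 to 3.39, and every estimate for Pdgfc lies below 0.

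Genes whose profiles over the 6 libraries were most like each member were found by the root mean square difference of centred log2 values, among 6789 genes with a mean of at least 50. For Pdgfrb these were the interferon-inducible gene Ifi203 (0.13), the focal adhesion adaptor gene Tgfb1i1 (0.20) and the ribosomal protein-like gene Rps4l (0.20). Tgfb1i1, for example, had 18.7, 28.6 and 30 normalized counts against 90.5, 89.4 and 102. Ifi203 and Rps4l have similar relatives in the genome, so how their reads were assigned is uncertain. For Pdgfra the nearest were Igfbp7 (0.32), an insulin-like growth factor-binding protein gene, the growth hormone receptor gene Ghr (0.34) and Prdm6 (0.37), none as near as Pdgfrb's. Igfbp7 shared its low value in wild-type library 1 and its high value in knock-out library 2, with 18.7, 82.3 and 79 against 175.6, 303.4 and 111.5. The distance between Pdgfra and Pdgfrb themselves was 0.50. For Pdgfa the nearest were Nt5c (0.12), Abhd17a (0.14) and Mpc2 (0.15), and for Pdgfc they were Mkrn2 (0.11), Ptpn4 (0.12) and Rrp15 (0.12). For Pdgfb, with few reads, the nearest were Crip1 (0.42), Mgat3 (0.44) and Lama5 (0.46).

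Other genes of the pathway were followed in 5 lists by role. Beside 6.92% of all tested genes, 1 of 10 tested extracellular regulators and co-receptors, 2 of 35 adaptors and kinases, 0 of 17 attenuators, 2 of 22 growth-factor response genes and 1 of 6 related receptors and ligands passed. The median log2 differences were 0.29, -0.04, 0.09, 0.38 and 0.35 in that order, against -0.01 over all tested genes. The only extracellular gene to pass, Pcsk6, reached the minimum of 10 only through the knock-out libraries. With the library sets, which were found from the same values, added to the model, 14.3% of all tested genes were higher and 12.2% lower. The lists then had 5 higher and 1 lower, 4 and 5, 2 and 1, 10 and 0, and 3 and 0, in the same order.

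Outside the cell, Pcsk6, a proprotein convertase gene of the furin family, rose from 3.1 ± 0.8 to 57.9 ± 10.8 normalized counts (SD, n = 3 each; log2 difference 3.85, SE 0.29, limma adjusted p = 0.00101). It had 4, 2.5 and 2.7 against 67.9, 46.4 and 59.3. Pcsk6 reached the minimum of 10 only through the knock-out libraries, so the filter fixed its direction. Nrp1, which encodes a co-receptor for VEGF and other growth factors, had 65.4, 117.6 and 141.6 against 219.1, 366.1 and 269.4 and narrowly missed the threshold (log2 difference 1.43, adjusted p = 0.0508). It passed without wild-type library 1 (adjusted p = 0.0165), in edgeR (0.0482) and DESeq2 (0.00234), and with a pseudocount of 5 or no filter (0.0471 each). Over all alternatives its adjusted p ran from 0.0001, with the term for the library sets found from the same values, to 0.173. Without wild-type library 1 the count of this list was 3 higher and 1 lower, where 12.1% of all tested genes were higher and 9.02% lower.

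Among adaptors and kinases, the Src-family kinase gene Fyn rose 2.16-fold (25 ± 2 to 54 ± 6.9 normalized counts, limma adjusted p = 0.0272). Yes1, of the same kinase family, fell 2.18-fold (70 ± 11 to 32.1 ± 5.7, adjusted p = 0.0337). The members that passed thus moved in both directions. Both calls needed each library other than wild-type library 1 (adjusted p 0.0587 to 0.168 with 1 of them left out). The count was 3 higher and 2 lower of 35 without wild-type library 1, beside the 12.1% and 9.02% of that fit.

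Among attenuators, 0 of 17 passed in limma, in edgeR or in DESeq2, beside 6.92%, 7.27% and 9.02% of all tested genes in either direction. At an unadjusted p under 0.05 the count was 1 lower and 0 higher, beside 9.84% and 12.7% of all tested genes. This was Nherf1, which encodes a scaffold that binds the receptor tail, with 417 ± 16.6 and 331.5 ± 10.4 normalized counts (log2 difference -0.33, adjusted p = 0.16). Spred1, which encodes an inhibitor of Ras signalling, followed with 162.5 ± 25.2 and 206.5 ± 17.5 (adjusted p = 0.29).

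Among growth-factor response genes, Phlda1, a gene induced by receptor tyrosine kinase signalling, rose 3.49-fold, with 108.1, 140.2 and 148 normalized counts against 475.2, 440.9 and 465.1 (limma adjusted p = 0.00178). It passed in every alternative. The transcription factor gene Klf4 rose 2.41-fold (204.4 ± 68.2 to 492.9 ± 53.9, adjusted p = 0.0233) and lost its call without any 1 library other than wild-type library 1 (adjusted p 0.0691 to 0.117). Without wild-type library 1, 4 of the 22 were higher, beside 12.1% of all tested genes. At an unadjusted p under 0.05, 7 of the 22 were higher and 1 lower, beside 12.7% and 9.84% of all tested genes. Sphk1, 1 of these 7, reached the minimum of 10 only through the knock-out libraries, so the filter fixed its direction. Downward, 0 of the 22 passed in limma, edgeR or DESeq2, beside 237, 239 and 346 of all 10540 tested genes.

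Of the related receptors and ligands, Vegfd, a gene of the VEGF branch of the same growth factor family, rose 3.90-fold, from 237.5, 148.6 and 149.8 to 699.7, 599.9 and 791.5 normalized counts (limma adjusted p = 0.00392). Kitl, which encodes the ligand of the related receptor KIT, had 134.2 ± 36.5 and 220.8 ± 27.2 (adjusted p = 0.128). Pdgfrl, a gene named for its likeness to the receptors, had 0 to 5.4 normalized counts in any library and was not tested.

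**Figure D4:**
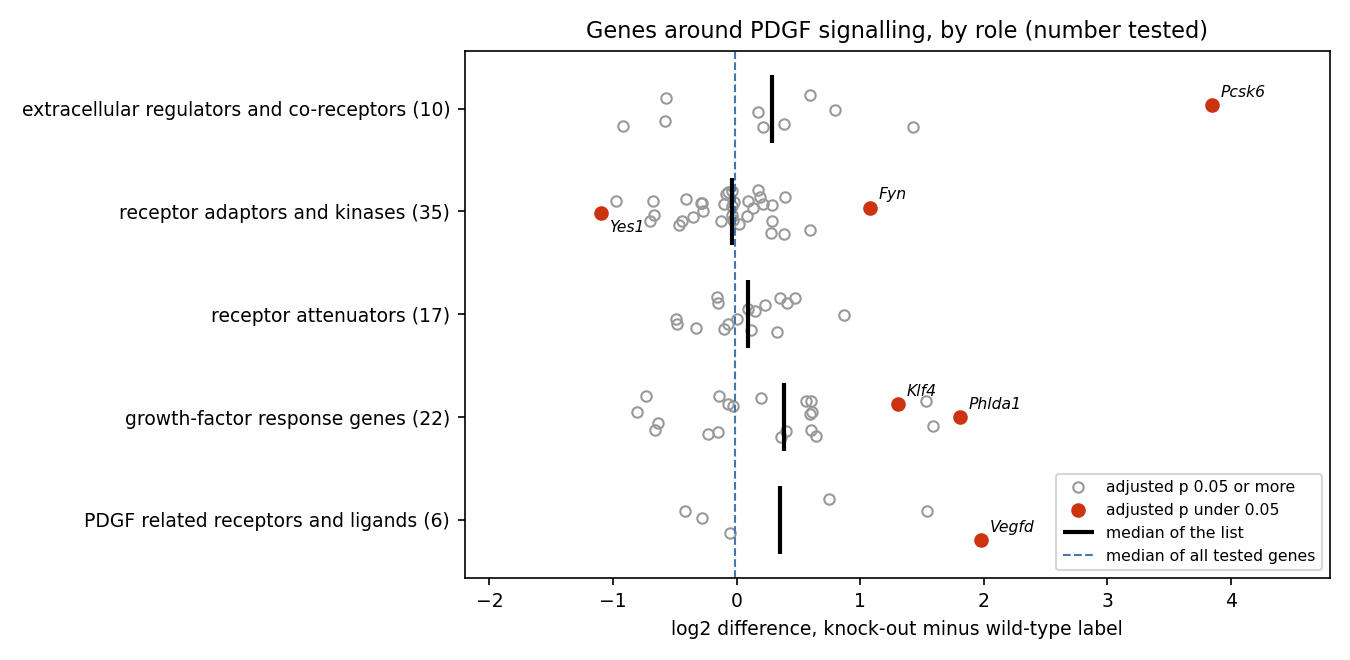
Log2 difference, knock-out minus wild-type label, of each tested gene in the 5 lists by role (circles, spread vertically only to separate them), with filled circles for genes past the threshold, black bars at list medians and a dashed line at the median of all tested genes. Pcsk6, which reached the minimum of 10 only through the knock-out libraries, lies farthest right at 3.85. In the adaptor list Fyn lies on one side and Yes1 on the other.

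Markers of the cell types that carry PDGF receptors moved in the same samples. Of 15 stellate cell markers 9 had a row in the table and 8 were tested, and all 8 had a positive log2 difference, 3 of them past the threshold (Hand2, Lhx2 and Col1a1). Over all tested genes, 48.9% had a positive difference and 4.67% passed upward. Gfap, the marker with a row that was not tested, had 2 ± 1.8 and 2.1 ± 1.4 normalized counts. Des, Lrat, Reln, Hgf, Ngfr and Rgs5 had no row and were not analysed here. Summed over the list, stellate cell markers came to 5265.9 to 6411.9 normalized counts under the wild-type label and 10363 to 12304.8 under the knock-out label, mostly collagen and vimentin. Smooth muscle and pericyte markers came to 194.8 to 220.1 and 965.2 to 1144.2, with 8 of 11 in the table, 5 tested and 4 higher. Cnn1, Lmod1 and Tagln, 3 of these 4, reached the minimum of 10 only through the knock-out libraries, so the filter fixed their direction. The 4 included Acta2, the smooth muscle actin gene of myofibroblasts (173.6 ± 8.7 to 920.8 ± 82.8), and the calponin gene Cnn1 (1 ± 0.9 to 31.3 ± 2.6). The pericyte markers Cspg4, Kcnj8 and Notch3 stayed at a mean of at most 3.8 in either label. Of 9 portal fibroblast markers 5 had a row and 4 were tested, with Thy1 and Eln higher, Thy1 having reached the minimum only through the knock-out libraries. Cd34 had 228.2 ± 90.9 and 130.2 ± 16.8, with groups that did not overlap (log2 difference -0.74, adjusted p = 0.186), and the list summed to 592.9 to 888.5 and 832.8 to 889.8. Of 9 mesothelial markers 8 had a row and 7 were tested, with Upk3b lower, and the list summed to 1858.5 to 2160 and 1344.3 to 1612.3. The part of these markers in the receptor values was not tested, and in bulk RNA a change in the number of cells of a type and a change in RNA per cell cannot be told apart.

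Markers of the cells known to make PDGF-B were low. For endothelium, 1 of 9 markers had a row (Kdr, 4.3 ± 1.1 and 7.5 ± 1.3 normalized counts). For macrophages it was 3 of 10, summing to 12.6 to 14.7 under the wild-type label and 16.6 to 27.5 under the knock-out label. For platelets and megakaryocytes it was 2 of 5, summing to 23.6 to 40 and 31.8 to 62.9, nearly all from Itga2b, while Pf4 had a mean of 0.4 and 3.8. Hepatocyte markers, 4 of 8 with a row, summed to 33.6 to 48.1 and 13.8 to 43.9. Of 6 cholangiocyte markers, 4 had a row and 3 were tested, with Sox9 higher (15.3 ± 5.8 to 478.6 ± 15.3) and Spp1 lower (74.6 ± 4.6 to 29.9 ± 3). Over all tested genes, 4.67% passed upward and 2.25% downward. Krt19, the other marker tested, had 49.4 ± 1.9 and 33.7 ± 3 without passing (limma adjusted p = 0.148). Krt7 had means of 7.1 and 9.6 and was not tested, and Epcam and Cldn7 had no row. The list thus did not move in 1 direction.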

How the data were processed

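Total RNA was taken up in Trizol and cleaned on a column, and libraries were made from 200 ng with the QuantSeq 3' forward kit and read as single ends of 75 bases, per the labels' protocols. DESeq2 (no version) and the build GRCm39 come from the submitters' processing notes. Not given in the sources used here are the aligner, annotation, strand setting and use of molecular identifiers. The authors deposited a normalized count signal, in which each gene's reads are divided by a factor of the library. Within a tolerance of 0.01, 100.0% of values in every library were whole multiples of 1 read, so reads were recovered. The lowest sum over 6 libraries was 9 reads.

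Genes with at least 10 normalized counts in at least 3 libraries, 10540 in all, were tested with limma 3.58.1 (R 4.3.3) with a variance trend on log2(value + 1), two-sided, with Benjamini-Hochberg adjustment at 0.05 over all tested genes. In this fit 729 genes passed. Each adjusted p comes from this fit unless another tool is named. Folds are ratios of group means. Alternatives were other pseudocounts and filters, TMM scaling, edgeR 4.0.16 and DESeq2 1.42.0 on recovered reads, no trend, a replicate block, a term for the library sets and leaving out each library. Running them on pathway genes and list counts was added after seeing the data. The script for the fits was tested on simulated data. Poisson and binomial intervals cover counting error only, while intervals of log2 differences come from the limma fit and its spread between libraries.

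Named genes are the 5 members, each list's genes past the threshold and its 2 with the smallest p, and the 3 profiles nearest to each member. Marker genes are named by their lists, and Sphk1 for its route through the filter. An item of the adaptor list is not reported here and was left out of its counts. The members and lists were chosen with earlier results of these data known. Sequences and starts are from RefSeq (GRCm38.p6), from which windows of 3 members, not of Pdgfrb or Pdgfb, were used, and no coordinates were moved between builds. In GENCODE M21 (GRCm38) no other gene covers the 3' end of a member, although antisense genes overlap elsewhere.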

Additional observations from a re-analysis of the deposited data

How the results depend on the processing

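The difference of Pdgfrb kept its direction in all 16 alternatives and lost its call only without a knock-out library. Leaving out 1 library gave log2 differences of 1.61 to 2.16 for Pdgfrb (adjusted p 0.00133 to 0.0923) and 1.79 to 2.78 for Pdgfra (0.0121 to 0.196). Pdgfra, which did not pass in the main test, passed with a pseudocount of 5 (2.20, adjusted p = 0.0455), in edgeR (2.30) and DESeq2 (2.30), with the replicate block (2.43, adjusted p = 0.042) and with a term for the library sets (2.92, adjusted p = 5.59e-05), where the sets themselves come from the measured values. The cause was not tested. Pdgfb, which was not tested, moved from -2.26 to -2.93 with a pseudocount of 0.5 and to -0.93 with 5, as a pseudocount must for few reads. It has no value in the alternatives that keep the filter and refit all genes, and Pdgfc has none with a mean of at least 50.

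The number of genes past the threshold, 729 in the main fit, was 380 with a mean of at least 50, where fewer genes were tested, 476 with the replicate block and 2791 with the term for the library sets. It ran from 200 to 2228 with 1 library left out, the highest without wild-type library 1. The labels do not say that the replicate numbers pair the samples. Deviations of libraries with the same number correlated at 0.45, 0.70 and -0.62, and wild-type library 1 correlated best with knock-out library 3. The block changed the call of Pdgfra among the members, and with it Fyn, Yes1 and Mkrn2 lost their calls and Nrp1 passed. No result of the members reversed direction in these alternatives. The depth limits Pdgfb and Pdgfc, with 18 and 80 reads over the 6 libraries.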
